A study of Mus musculus with 36 samples.

Results

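Long-term hematopoietic stem cells (LT-HSC) were compared with HPC-1, a multipotent progenitor population, in bone marrow of Il27ra heterozygous mice infused with angiotensin II (Ang II). The members were chosen from the deposited sample names and not by any measured value: 4 LT-HSC libraries and 4 HPC-1 libraries of this genotype and agent, which are 8 of the 36 libraries of the series. The series holds 12 groups, made of 2 cell types, 2 infusions (PBS or Ang II) and 3 states of the receptor gene Il27ra (intact, heterozygous or deficient). Both groups came from mice on the C57BL/6 background that lacked Apoe and carried 1 intact and 1 disrupted copy of Il27ra. They ate a Western diet for 12 weeks from 8 weeks of age, and minipumps gave 800 ng of Ang II per kg per min in the last 2 weeks. The gates of the sort were lineage-negative, Sca-1-positive and c-kit-positive cells, which were CD150-positive and CD48-negative for LT-HSC and CD150-negative and CD48-positive for HPC-1, and 5000 cells were sorted per sample. This follows the methods, while a supplementary legend of the study gives the HPC-1 gate as CD150-positive. The deposited names call the HPC-1 libraries ST-HSC, and the same cells are called HPC-1 throughout. The study asked how the lack of the IL-27 receptor alters stem cells and blood cell production in an aorta disease model. The labels give neither sex nor batch, and they do not tie a library to a mouse, so the p-values measure the spread between these samples.

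LT-HSC are mostly quiescent cells that can rebuild all blood lineages for the life of the animal, and they are known for transcription factors such as Mecom, Hlf and Gata2. HPC-1 are cycling multipotent cells that no longer self-renew for long and that begin to transcribe myeloid and lymphoid genes. Markers of both states are surface proteins of the SLAM family: Slamf1 encodes CD150 and Cd48 encodes CD48.

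Total RNA was sequenced, and the deposited values are whole-number expected counts per Ensembl gene. Library totals were 2183648, 2568392, 4512346 and 6861078 counts in LT-HSC replicates 1 to 4 and 2618919, 2349391, 2272026 and 6318379 counts in HPC-1 replicates 1 to 4. Values are TMM-normalized CPM (counts scaled to a common library size), listed for replicates 1 to 4 of LT-HSC and then of HPC-1. The same numbers in both groups are not known to be pairs, and the libraries numbered 3 differed in sex-linked expression. A count of 3, the floor used per group for folds against a group without counts, equals 0.396 to 1.43 CPM in a single library, and floors and counting intervals cover counting error only. The 3 libraries above 4 M counts (LT-HSC replicates 3 and 4 and HPC-1 replicate 4) had Xist, the noncoding RNA of the inactive X chromosome, at 3923, 3682 and 3487 CPM and no count of Ddx3y, a Y-linked helicase gene. In the other 5 libraries Xist lay between 4.75 and 19.02 CPM and Ddx3y between 54.3 and 103 CPM. Depth and sex-linked expression thus moved together, and fits with a Y-linked covariate (2141 genes called) and with the 5 shallower libraries alone (705 called, with fewer libraries) are set out at the end. In bulk RNA, fewer cells of a type and less RNA per cell cannot be told apart.

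The comparison of all expressed genes asked which transcripts differ between the gates. Of the genes in the table, 11504 passed the filter on low counts and were tested with edgeR (quasi-likelihood test, Benjamini-Hochberg adjustment over all of them), and a gene is described as called when its adjusted p was under 0.05. The 2182 called genes were 19% of those tested. Of these, 1189 were higher in LT-HSC (10.3%) and 993 in HPC-1 (8.63%), and all percentages here are of the genes tested. Of the called genes, 1439 (12.5%) differed at least 2-fold, 906 with more in LT-HSC (7.88%) and 533 with more in HPC-1 (4.63%). For 2782 genes (24.2%) the groups did not overlap, 1585 of them higher in LT-HSC (13.8%) and 1197 higher in HPC-1 (10.4%). The median log2 difference, LT-HSC minus HPC-1, was -0.01 over all genes tested, and scaling by library totals in place of TMM moved it to 0.107. The balance of the calls depended on the scaling, with 1330 higher in LT-HSC and 712 in HPC-1 with library totals, 1294 and 853 with upper quartiles and 1183 and 1011 with RLE.

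Correlations of log2 CPM across genes, which are not independent replicates, lay between 0.906 and 0.952 for pairs of LT-HSC libraries, between 0.857 and 0.950 for pairs of HPC-1 libraries and between 0.739 and 0.847 across the cell types. The first principal component held 54.8% of the variance and placed the 4 LT-HSC libraries apart from the 4 HPC-1 libraries. The second held 16.2%, and on it HPC-1 replicate 1 (48.3) and HPC-1 replicate 3 (-73.9) lay at opposite ends while the LT-HSC libraries stayed between -4.14 and 7.34.

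**Figure D1:**
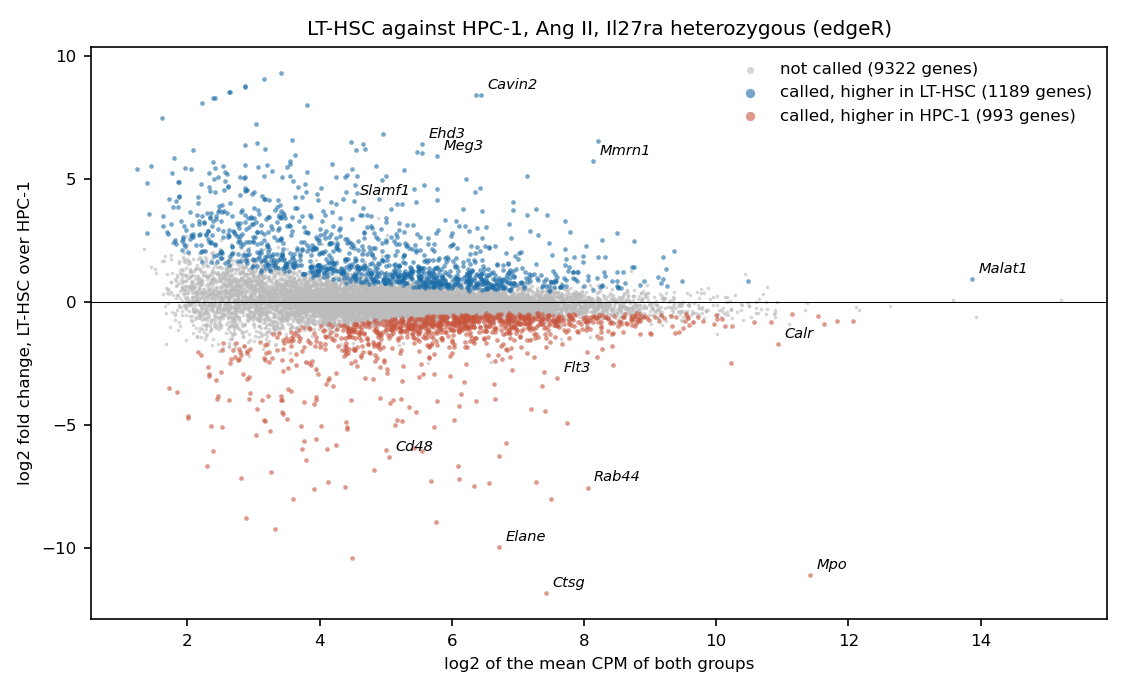
Log2 difference of LT-HSC over HPC-1 (vertical axis) against the log2 mean CPM of the 8 libraries (horizontal axis) for the 11504 genes tested with edgeR, with 1189 genes called higher in LT-HSC in blue and 993 called higher in HPC-1 in red. Fitted values of genes with 3 or fewer counts in a group, among them Ctsg and Elane, depend on the prior count of the fit.

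The label of the groups was checked against the genes of the sort gates and against Mpo, which encodes the myeloperoxidase of neutrophil and monocyte precursors. The sort used the proteins of Slamf1 and Cd48, so their direction was set by it. Slamf1 (ENSMUSG00000015316, chromosome 1, 171767127 to 171801184), with positions in mm10 here and below, encodes CD150 and had 30.9, 46.1, 59.8 and 36.5 CPM in LT-HSC and 3.12, 0.449, 3.02 and 2.99 in HPC-1. The lowest LT-HSC library was about 10 times the highest HPC-1 library, and the comparison gave a log2 difference of 4.11 (SE 0.41, adjusted p = 1.7e-05). Cd48 (ENSMUSG00000015355, chromosome 1, 171682009 to 171705258) had 0.475, 0, 0 and 1.85 CPM in LT-HSC and 48.6, 57.4, 85.004 and 71.1 in HPC-1. Every HPC-1 library lay far above every LT-HSC library, 2 of which held no count of Cd48, with a log2 difference of -6.30 (SE 0.58, adjusted p = 1.2e-05). Mpo (ENSMUSG00000009350, chromosome 11, 87793581 to 87804413) had 4.75, 3.07, 2.76 and 0.659 CPM in LT-HSC and 5942, 5635, 5631 and 4683 in HPC-1. The HPC-1 values were within a narrow range and the LT-HSC values were near the floor, with a log2 difference of -11.13 (SE 0.45, adjusted p = 2.0e-08). The 3 markers followed the labels in all 8 libraries.

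Of the 15 genes of proteins used in stem and progenitor cell gates, 14 passed the filter, 7 were called higher in LT-HSC and 5 higher in HPC-1. Il7r, the gene of the interleukin-7 receptor used to gate lymphoid progenitors, was not tested, with 6 counts in all LT-HSC and 15 in all HPC-1 libraries. Kit, the gene of the stem cell factor receptor c-kit that both gates require, had 924, 1241, 862 and 795 CPM in LT-HSC and 529, 711, 1046 and 604 in HPC-1. The groups overlapped and the difference was not called (log2 difference 0.40, adjusted p = 0.24), and it was called without HPC-1 replicate 3 (adjusted p = 0.033) and with limma-voom (adjusted p = 0.042). Ly6a, which encodes the Sca-1 protein that both gates also require, had 13.3, 16.1, 15.3 and 15.04 CPM in LT-HSC and 1.78, 3.14, 3.88 and 6.62 in HPC-1. Its groups did not overlap, with a log2 difference of 1.88 (SE 0.44, adjusted p = 0.0091).

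Genes of further stem cell surface proteins were higher in LT-HSC in every library. Procr, the gene of the protein C receptor EPCR, had 35.2, 57.6, 34.4 and 35.7 CPM in LT-HSC and 3.12, 4.49, 4.75 and 3.31 in HPC-1, and LT-HSC replicate 2 was the highest. Esam, the gene of an endothelial and stem cell adhesion protein, had 64.2, 65.7, 84.01 and 73.5 CPM in LT-HSC and 6.24, 5.83, 10.4 and 9.93 in HPC-1. Tek, which encodes the angiopoietin receptor TIE2 that favours quiescence, had 87.5, 77.9, 103 and 73.1 CPM in LT-HSC and 8.47, 15.2, 38.8 and 19.5 in HPC-1. Log2 differences were 3.39 for Procr (adjusted p = 9.9e-06), 3.12 for Esam (adjusted p = 2.2e-06) and 2.06 for Tek (adjusted p = 0.0010). HPC-1 replicate 3 stood above the other HPC-1 libraries for Tek, and no HPC-1 library reached the LT-HSC range for any of these 3 genes. Itga2b, the gene of the platelet integrin CD41, had 459.7, 306, 708 and 632 CPM in LT-HSC and 82.03, 79.8, 87.6 and 115 in HPC-1 and a log2 difference of 2.53 (SE 0.25, adjusted p = 1.6e-05).

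On the progenitor side, Cd34, which encodes the sialomucin that is low on adult mouse LT-HSC, had 175, 109.8, 42.2 and 80.98 CPM in LT-HSC and 438, 760.2, 685 and 490.0 in HPC-1. LT-HSC replicate 3 was the lowest and LT-HSC replicate 1 the highest of the stem cell libraries, and all stayed under the HPC-1 values (-2.55, SE 0.37, adjusted p = 0.00055). Flt3, the gene of the receptor that marks lymphoid-myeloid progenitors, had 60.4, 56.8, 8.06 and 39.04 CPM in LT-HSC and 218, 415, 465 and 287 in HPC-1. The same LT-HSC replicate 3 was the lowest for Flt3, and the comparison gave a log2 difference of -3.10 (SE 0.55, adjusted p = 0.0047), a call lost with replicate number as a block (adjusted p = 0.075). Cd244a, which encodes the SLAM receptor CD244 of multipotent progenitors, had 10.5, 3.84, 0 and 2.51 CPM in LT-HSC and 63.3, 63.2, 85.004 and 38.6 in HPC-1 and a log2 difference of -4.12 (SE 0.75, adjusted p = 0.0041). Fcgr3, the gene of an Fc gamma receptor of granulocyte-monocyte progenitors, had 0, 0.384, 0.424 and 0.791 CPM in LT-HSC and 64.2, 19.7, 38.4 and 13.6 in HPC-1, and its HPC-1 values spread widely while the LT-HSC values stayed under 1 CPM (log2 difference -5.98, adjusted p = 3.4e-05). Cd27, a receptor of the tumor necrosis factor family on multipotent progenitors, had 203, 164, 47.9 and 103 CPM in LT-HSC and 333, 275, 273 and 148 in HPC-1. The groups overlapped and Cd27 was not called (adjusted p = 0.10), but it was without LT-HSC replicate 1 (adjusted p = 0.039) and in 4 settings given at the end. Il27ra (ENSMUSG00000005465, chromosome 8, 84030294 to 84042589), whose second copy is disrupted in all 8 libraries, had 30.4, 26.1, 27.4 and 32.6 CPM in LT-HSC and 5.35, 9.42, 14.2 and 16.1 in HPC-1. Every LT-HSC library was above every HPC-1 library, with a log2 difference of 1.34 (SE 0.33, adjusted p = 0.012).

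**Figure D2:**
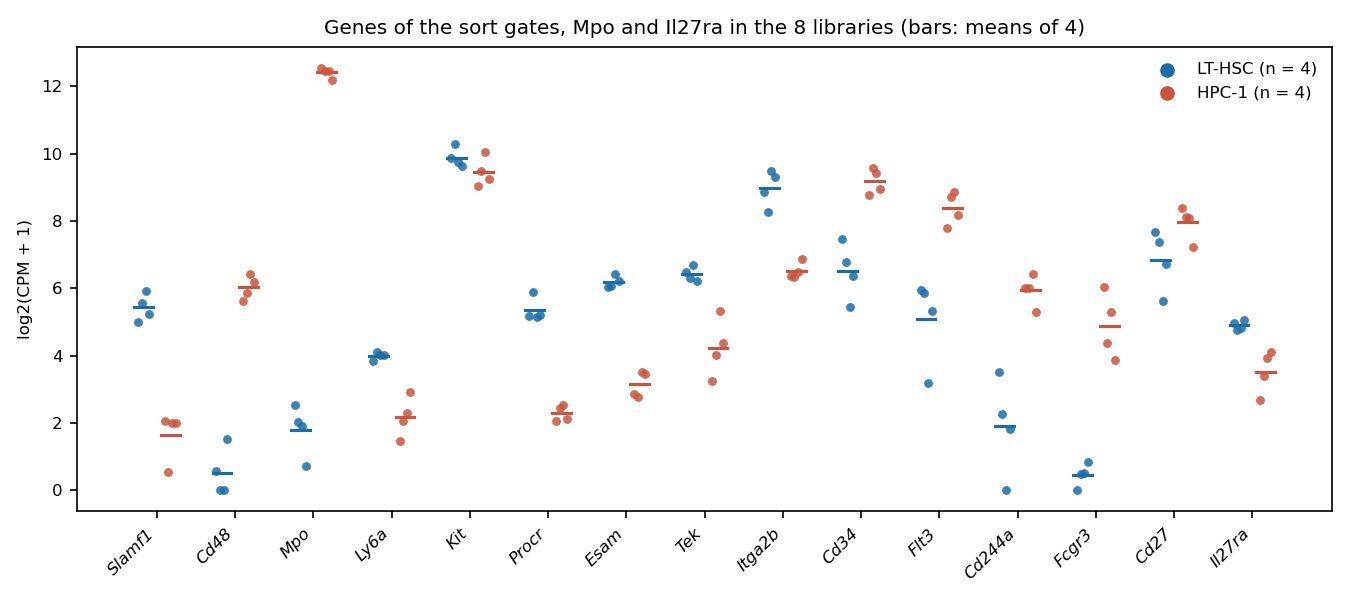
Level of 15 genes as log2(CPM + 1) in the 4 LT-HSC (blue) and 4 HPC-1 (red) libraries, each point a library and each bar the mean of 4. Groups are apart for all but Kit and Cd27.

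The 12 leading genes in each direction were those with the smallest adjusted p among called genes whose groups did not overlap, whose difference was at least 2-fold and whose mean in the higher group was at least 10 CPM, and 11 of them are given for each direction. Mmrn1 (ENSMUSG00000054641, chromosome 6, 60924976 to 60989378), which encodes multimerin 1, a factor V binding protein stored in platelets and endothelial cells, came first in LT-HSC. Its values were 434, 643, 637 and 499 CPM in LT-HSC and 8.92, 15.2, 10.8 and 7.57 in HPC-1, so every LT-HSC library was more than 20 times the highest HPC-1 library, with a log2 difference of 5.73 (SE 0.26, adjusted p = 3.2e-08). Cavin2 (ENSMUSG00000045954, chromosome 1, 51289126 to 51302960), the gene of a protein that shapes caveolae, had 111, 137, 261 and 182 CPM in LT-HSC and 1.34, 0.449, 0.431 and 0.158 in HPC-1. All HPC-1 libraries were near the floor, with 6 counts in the 4 of them together against 3198 in LT-HSC (8.43, SE 0.46, adjusted p = 7.0e-08). Ehd3 (ENSMUSG00000024065, chromosome 17, 73804134 to 73832094), which encodes a membrane-recycling ATPase, had 91.8, 69.1, 134 and 76.5 CPM in LT-HSC and 2.23, 0.897, 0 and 1.10 in HPC-1. HPC-1 replicate 3 held no count, and the log2 difference was 6.41 (SE 0.44, adjusted p = 5.9e-07).

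Arhgef12 (ENSMUSG00000059495, chromosome 9, 42963842 to 43107239), the gene of an exchange factor for the GTPase RhoA, had 226, 227, 228 and 218 CPM in LT-HSC and 12.04, 21.5, 19.4 and 14.97 in HPC-1. LT-HSC values were nearly equal, and replicate 4 was the lowest of them by a small margin (log2 difference 3.73, adjusted p = 7.0e-08). Mtss1l (ENSMUSG00000033763, chromosome 8, 110721476 to 110741400), which encodes a protein that bends the plasma membrane, had 98.4, 144, 181 and 149.6 CPM in LT-HSC and 5.35, 5.83, 3.02 and 3.94 in HPC-1. Aldh1a1 (ENSMUSG00000053279, chromosome 19, 20492715 to 20643465), the gene of an enzyme that makes retinoic acid from retinal, had 102, 176, 192 and 157 CPM in LT-HSC and 4.90, 7.62, 7.33 and 7.88 in HPC-1. Mtss1l and Aldh1a1 were lowest in replicate 1 among the LT-HSC libraries, and both were far above all HPC-1 libraries (5.01 and 4.47, adjusted p = 7.0e-08 and 1.0e-07).

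Fgd5 (ENSMUSG00000034037, chromosome 6, 91978878 to 92076004), an exchange factor gene used to label LT-HSC in reporter mice, had 106, 154, 156 and 124 CPM in LT-HSC and 16.9, 15.2, 17.3 and 22.7 in HPC-1 and a log2 difference of 2.88 (SE 0.21, adjusted p = 8.7e-07). Tgfbr3 (ENSMUSG00000029287, chromosome 5, 107106570 to 107289629), which encodes betaglycan, the co-receptor of TGF-beta, had 272, 212, 200.5 and 161 CPM in LT-HSC and 24.5, 17.9, 19.4 and 29.5 in HPC-1. LT-HSC replicate 1 was the highest here, and the difference of 3.18 was called (adjusted p = 7.5e-07). Med12l (ENSMUSG00000056476, chromosome 3, 59005825 to 59318682), a gene related to a Mediator subunit, had 342, 354, 432 and 393 CPM in LT-HSC and 35.7, 30.1, 55.7 and 33.9 in HPC-1. Itsn1 (ENSMUSG00000022957, chromosome 16, 91729281 to 91920597), which encodes an endocytic scaffold, had 377, 479.9, 337 and 355 CPM in LT-HSC and 62.4, 61.9, 45.3 and 47.4 in HPC-1. Med12l and Itsn1 were well expressed in both gates, and every LT-HSC library still exceeded the highest HPC-1 library by more than 5-fold, with log2 differences of 3.30 (adjusted p = 4.2e-07) and 2.84 (adjusted p = 5.5e-07). Plxdc2 (ENSMUSG00000026748, chromosome 2, 16356304 to 16755839), a transmembrane protein gene, had 81.8, 100.2, 72.8 and 75.6 CPM in LT-HSC and 4.46, 7.18, 3.02 and 5.04 in HPC-1 and a log2 difference of 4.05 (SE 0.27, adjusted p = 4.5e-07).

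In HPC-1 the genes with the smallest adjusted p were largely those of neutrophil granule proteases and of myeloid regulators, with Mpo first. Ctsg (ENSMUSG00000040314, chromosome 14, 56099881 to 56102574), which encodes the protease cathepsin G, had 0, 0.384, 0 and 0 CPM in LT-HSC and 554, 334, 231 and 253 in HPC-1. A single count of Ctsg was seen in the 4 LT-HSC libraries together, in replicate 2, against 4126 in HPC-1. The pooled ratio of HPC-1 to LT-HSC was 5341 with an exact 95% counting interval from 958 to 211009 (adjusted p = 3.3e-08). Elane (ENSMUSG00000020125, chromosome 10, 79886247 to 79888215), the gene of neutrophil elastase, had 0, 0, 0.424 and 0.132 CPM in LT-HSC and 291, 193, 253 and 106 in HPC-1. With 3 counts in LT-HSC and 2343 in HPC-1, its pooled ratio was 1011 with an interval from 346 to 4906 (adjusted p = 7.0e-08).

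Rab44 (ENSMUSG00000064147, chromosome 17, 29114145 to 29148980), the gene of a large Rab GTPase of granulated blood cells, had 3.33, 1.15, 2.76 and 3.43 CPM in LT-HSC and 499, 318, 737 and 568 in HPC-1. HPC-1 replicate 3 was the highest and replicate 2 the lowest of the progenitor libraries, and the LT-HSC libraries were all under 5 CPM (-7.56, SE 0.35, adjusted p = 3.2e-08). Atp8b4 (ENSMUSG00000060131, chromosome 2, 126320973 to 126500674), which encodes a phospholipid flippase, had 3.33, 2.69, 0.636 and 1.85 CPM in LT-HSC and 376, 273, 341 and 239.9 in HPC-1 and a log2 difference of -7.32 (SE 0.35, adjusted p = 3.2e-08). Ccl9 (ENSMUSG00000019122, chromosome 11, 83572919 to 83578636), a chemokine gene of myeloid cells, had 2.38, 4.22, 1.06 and 3.17 CPM in LT-HSC and 181, 191, 276 and 179 in HPC-1. HPC-1 replicate 3 stood apart above the other progenitor libraries for Ccl9, and the log2 difference was -6.27 (adjusted p = 5.5e-08). Irf8 (ENSMUSG00000041515, chromosome 8, 120736358 to 120756694), the transcription factor that directs monocyte and dendritic cell fate, had 1.90, 3.46, 2.55 and 6.73 CPM in LT-HSC and 219, 244, 193 and 229 in HPC-1. The HPC-1 values were close together, and LT-HSC replicate 4 was the highest of the low group (-5.76, SE 0.31, adjusted p = 7.0e-08).

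Plac8 (ENSMUSG00000029322, chromosome 5, 100553725 to 100572245), a gene of a cysteine-rich protein common in myeloid progenitors, had 24.2, 13.4, 8.70 and 10.4 CPM in LT-HSC and 377, 414, 400.4 and 467 in HPC-1. LT-HSC replicate 1 was the highest stem cell library, far below the lowest HPC-1 library (-4.93, adjusted p = 1.6e-07). Itgal (ENSMUSG00000030830, chromosome 7, 127296260 to 127335138), which encodes the alpha chain of the leukocyte integrin LFA-1, had 5.23, 10.4, 7.001 and 5.80 CPM in LT-HSC and 107, 158, 111 and 146 in HPC-1 and a log2 difference of -4.22 (SE 0.25, adjusted p = 1.6e-07). Dtx4 (ENSMUSG00000039982, chromosome 19, 12466338 to 12501454), the gene of a Deltex ubiquitin ligase, had 3.33, 3.84, 3.39 and 4.88 CPM in LT-HSC and 87.4, 78.5, 78.5 and 64.9 in HPC-1. Chdh (ENSMUSG00000015970, chromosome 14, 30009023 to 30040527), which encodes the mitochondrial choline dehydrogenase, had 0.951, 0, 0.636 and 1.32 CPM in LT-HSC and 215, 166, 174 and 91.1 in HPC-1. HPC-1 replicate 4 was the lowest progenitor library for both Dtx4 and Chdh, with log2 differences of -4.27 (adjusted p = 1.0e-07) and -7.51 (adjusted p = 1.0e-07).

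**Figure D3:**
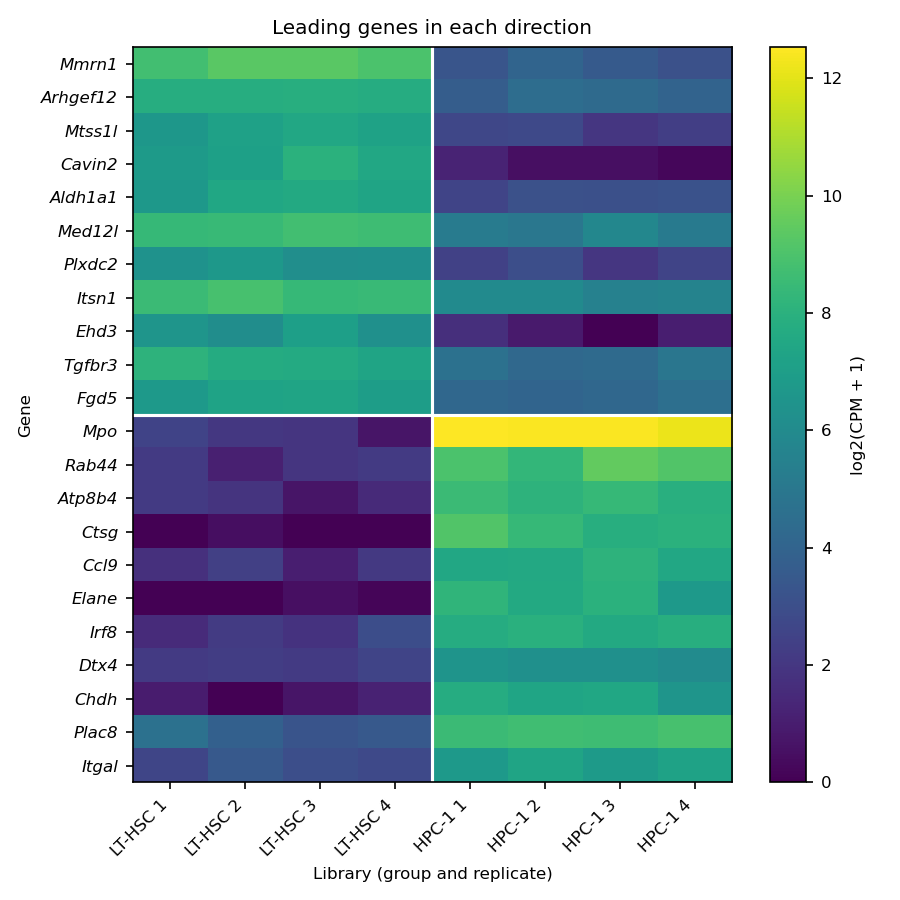
Level of 11 of the 12 leading genes in each direction (rows) in the 8 libraries (columns) as log2(CPM + 1) on a color scale, LT-HSC on the left and HPC-1 on the right of the white line. Each gene of the upper block is higher in all 4 LT-HSC libraries and each gene of the lower block in all 4 HPC-1 libraries.

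Stem cell genes were described with lists that were chosen with earlier results of these data known. Each list was described by counts of called members and by the median log2 difference beside the -0.01 of all genes tested. Shares of called members near the 10.3% of all genes for LT-HSC and 8.63% for HPC-1 are not results about a list, as for ribosomal proteins, MHC class I, cholesterol, clonal hematopoiesis, E2F, Myc, Trp53 and IL-27 receptor genes. Where 2 values joined by "to" follow a gene of a list, they are the lowest and the highest of the 4 libraries of each group. Of 27 LT-HSC marker genes, 26 passed the filter, 25 were called higher in LT-HSC and 0 higher in HPC-1, with a median of 3.10. The list includes Slamf1, whose product the sort used. Socs2 was not tested. Robo4, the gene of a guidance receptor that anchors stem cells in marrow, was the tested gene without a call, at 25.2, 47.6, 44.3 and 42.5 CPM in LT-HSC and 0, 20.2, 9.92 and 11.03 in HPC-1. HPC-1 replicate 1 held no count of Robo4 and the groups did not overlap (adjusted p = 0.054), and Robo4 was called without HPC-1 replicate 1 (adjusted p = 0.0053), without HPC-1 replicate 2 (adjusted p = 0.037) and in 5 settings given at the end.

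All 23 transcription factors of stem cell identity passed the filter, with 16 called higher in LT-HSC, 1 higher in HPC-1 and a median of 1.43. Mecom, the zinc finger gene needed for LT-HSC upkeep, had 223, 308, 259 and 230.2 CPM in LT-HSC and 28.98, 34.1, 46.6 and 28.4 in HPC-1. Prdm16, a zinc finger gene that preserves stem cells, had 109 to 149 CPM in LT-HSC and 10.3 to 21.1 in HPC-1. The lowest LT-HSC library was more than 4 times the highest HPC-1 library for both genes, and the log2 differences were 2.89 for Mecom (adjusted p = 8.7e-07) and 3.09 for Prdm16 (adjusted p = 1.7e-06). Sox4, the HMG-box factor of progenitors and lymphoid cells, was the gene with the opposite direction, at 304, 213, 124 and 184 CPM in LT-HSC and 357, 431, 453 and 391 in HPC-1 and with a log2 difference of -0.99 (adjusted p = 0.0091).

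Hox genes of the A and B clusters set positional identity in the embryo and are active in immature blood cells. Of 21 such genes, 12 passed the filter, 5 were called higher in LT-HSC and 0 in HPC-1, and the median was 1.60. Hoxb5, used as a marker of LT-HSC, had 6.18 to 21.003 CPM in LT-HSC and 0 to 2.36 in HPC-1. Hoxa3 had 26.4 to 49.5 CPM in LT-HSC and 6.24 to 14.2 in HPC-1. Both were higher in every LT-HSC library, by 3.76 (adjusted p = 0.0043) and 1.77 (adjusted p = 0.0022) on the log2 scale. The other 3 genes called were Hoxb2 (2.46, adjusted p = 0.0040), Hoxa6 (2.12, adjusted p = 0.0044) and Hoxb6 (3.23, adjusted p = 0.0060).

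Megakaryocyte and platelet genes are transcribed by a share of LT-HSC as well as by megakaryocytes. Of 19 listed genes, 18 passed the filter, 16 were called higher in LT-HSC and 0 in HPC-1, and the median was 3.14. Summed over the list, the level was 2126, 2218, 4235 and 3187 CPM in LT-HSC and 361, 379, 523 and 545 in HPC-1, and Ppbp, the gene of a platelet chemokine, was not tested. Rab27b, which encodes a GTPase of platelet granule release, had 63.7 to 159 CPM in LT-HSC and 4.01 to 7.57 in HPC-1. Itgb3, the integrin beta 3 gene, whose product pairs with the product of Itga2b, had 215 to 423 CPM in LT-HSC and 22.4 to 33.3 in HPC-1. LT-HSC replicates 3 and 4 were the highest for Itgb3 and for Itga2b, while replicate 3 was the highest for Rab27b. The log2 differences were 4.15 for Rab27b (adjusted p = 1.7e-06) and 3.55 for Itgb3 (adjusted p = 1.3e-06), and the part of any megakaryocytes in these results was not tested.

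Progenitor markers went the other way. Of 12 genes known from HPC-1 or other multipotent progenitors, all 12 passed the filter, 10 were called higher in HPC-1 and 0 in LT-HSC, with a median of -4.39. Cd27 and Lsp1 were not called. The list includes Cd48, whose product the sort used. It shares members with the granulocyte-monocyte list (among them Mpo and Ctsg) and the early lymphoid list (among them Flt3 and Satb1) below. Satb1, a chromatin organizer of lymphoid-primed cells, had 19.02, 23.4, 3.39 and 12.1 CPM in LT-HSC and 240.3, 324, 328 and 230.1 in HPC-1. LT-HSC replicate 3 was the lowest library for Satb1, for Flt3 and for Cd34, and the groups did not overlap for any of them. The log2 difference was -4.34 for Satb1 (adjusted p = 6.2e-05).

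Of 16 genes of granulocyte and monocyte progenitors, 15 passed the filter, 14 were called higher in HPC-1 and 0 in LT-HSC, and the median was -5.995, with Cebpe not tested. The median was the same, -5.995, with the 4 genes of 3 or fewer counts in LT-HSC at their bound or pooled ratio. Csf1r, the receptor of macrophage colony-stimulating factor, had 0, 2.69, 0 and 2.24 CPM in LT-HSC and 75.8, 93.3, 99.7 and 101 in HPC-1. LT-HSC replicates 1 and 3 held no count, and the comparison gave a log2 difference of -6.07 (adjusted p = 1.6e-05). Cebpa, the transcription factor required for granulocyte commitment, had 3.33, 3.07, 2.12 and 7.91 CPM in LT-HSC and 114, 131, 103 and 156 in HPC-1. LT-HSC replicate 4 and HPC-1 replicate 4 were the highest of their groups, with a log2 difference of -4.81 (adjusted p = 9.5e-07). Lyz2, the gene of lysozyme M, was the tested member without a call, at 130.3, 124, 109 and 101 CPM in LT-HSC and 112, 107, 92.3 and 92.8 in HPC-1 (log2 difference 0.20, adjusted p = 0.43).

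Of 21 lineage-choice transcription factors, 15 passed the filter, 2 were called higher in LT-HSC and 7 higher in HPC-1, with a median of -0.68. Zfpm1, which encodes the GATA1 partner FOG1 of megakaryocytes and red cells, had 519 to 933 CPM in LT-HSC and 83.8 to 189 in HPC-1 and a log2 difference of 2.49 (adjusted p = 2.8e-05). Bcl11a, a zinc finger repressor of fetal globin, was the other gene with more in LT-HSC (0.66, adjusted p = 0.034), and its call was lost without any 1 of LT-HSC replicates 1 and 2 and HPC-1 replicates 2 and 4 (adjusted p between 0.091 and 0.11). Among the HPC-1 genes, Ikzf1, which encodes the lymphoid regulator Ikaros, had 138 to 182 CPM in LT-HSC and 230.0 to 278 in HPC-1. Myb, a regulator of progenitor growth, had 732 to 989 CPM in LT-HSC and 1135 to 1596 in HPC-1. Both were expressed in all libraries of both gates and differed by less than 2-fold (-0.74 and -0.68, adjusted p = 0.0048 and 0.013).

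Early lymphoid genes were described in the same way: 20 were listed, 12 passed the filter, 7 were called higher in HPC-1 and 0 in LT-HSC, and the median was -1.75. Dntt, the template-independent DNA polymerase of antigen receptor joining, had 4.28, 0.384, 0 and 1.45 CPM in LT-HSC and 61.1, 252, 119 and 108 in HPC-1. HPC-1 replicate 2 was the highest and replicate 1 the lowest of the progenitor libraries, and the lowest still exceeded every LT-HSC library (-6.69, adjusted p = 0.00042). Rag1, Rag2, Il7r and Ebf1, genes of committed lymphoid cells, were among the 8 members with too few counts to be tested.

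Promoters were searched for short motifs to set out what sequence features genes that moved together held, and the motifs were chosen after the calls had been seen. The window was the 250 bases before each start in RefSeq promoters of build GRCm38.p6, read on both strands. GAGGAAGT, a site of the type bound by the myeloid factor PU.1, was in 2.44% of 32851 promoters, in 2.79% of their 27025 genes and in 4 of the 14 granulocyte-monocyte genes that matched a promoter: Mpo, Elane, Prtn3 and Ly6c2. TTCCCGCC, of the type bound by the cell cycle factors of the E2F family, was in 1.86% of promoters, 2.13% of genes and 4 of the 26 replication genes matched: Prim1, Rrm1, Uhrf1 and Chaf1a. AGATAA, of the type bound by GATA factors, was in 9.99% of promoters, 11.4% of genes and 2 of the 14 megakaryocyte genes matched, Gp5 and F2rl2. All 10 of these genes were called, the first 8 higher in HPC-1 and the last 2 higher in LT-HSC, but so were 9 of 10, 10 of 22 and 10 of 12 matched genes of the lists without the motif. A match describes letters only and is neither a binding site nor a cause.

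Stretches with a motif are shown to set the sequence beside genes that differed, with the motif in capitals, read 5′ to 3′ on the strand of the gene. The Prim1 motif lies within an annotated exon, and Ly6c2 has near-identical neighbours, which leave its counts uncertain, and a second start with a further copy 8 bases before it, so neither is printed. Positions are chr11:87793534-87793580, plus strand for Mpo, chr10:79886167-79886246, plus strand for Elane and chr10:79879512-79879613, plus strand for Prtn3.
Mpo: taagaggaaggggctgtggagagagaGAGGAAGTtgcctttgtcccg
Elane: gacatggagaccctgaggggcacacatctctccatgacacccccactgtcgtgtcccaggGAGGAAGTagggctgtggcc
Prtn3: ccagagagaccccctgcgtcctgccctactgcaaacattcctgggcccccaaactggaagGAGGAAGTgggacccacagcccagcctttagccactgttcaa
For the replication genes the positions are chr7:102441568-102441694, plus strand for Rrm1, chr17:56303229-56303320, plus strand for Uhrf1 and chr17:56040309-56040415, plus strand for Chaf1a.
Rrm1: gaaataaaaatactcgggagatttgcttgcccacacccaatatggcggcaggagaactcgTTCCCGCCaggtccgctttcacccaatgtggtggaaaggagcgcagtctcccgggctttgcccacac
Uhrf1: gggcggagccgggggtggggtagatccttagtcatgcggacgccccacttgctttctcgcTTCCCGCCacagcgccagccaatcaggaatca
Chaf1a: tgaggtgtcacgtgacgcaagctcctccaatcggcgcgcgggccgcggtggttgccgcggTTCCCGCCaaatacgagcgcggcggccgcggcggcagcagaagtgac
For the megakaryocyte genes the positions are chr16:30310809-30310934, minus strand for Gp5, where the motif is on the other strand and occurs 2 times, and chr13:95696765-95696852, plus strand for F2rl2.
Gp5: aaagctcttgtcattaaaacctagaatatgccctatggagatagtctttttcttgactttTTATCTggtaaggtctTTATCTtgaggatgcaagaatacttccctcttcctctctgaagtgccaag
F2rl2: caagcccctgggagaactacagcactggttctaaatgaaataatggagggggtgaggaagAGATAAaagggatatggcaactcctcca

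Receptors of blood growth factors and cytokines decide which signals each cell can receive. Of 30 listed receptors, 27 passed the filter, 4 were called higher in LT-HSC and 12 higher in HPC-1, with a median of -0.64. Higher in HPC-1 was Csf2rb, a cytokine receptor gene, at 7.21 to 18.1 CPM in LT-HSC and 111 to 148 in HPC-1 (log2 difference -3.25, adjusted p = 2.3e-06). Those higher in LT-HSC included Tek, Il27ra and Igf1r. Igf1r, the receptor of insulin-like growth factor 1, had 195 to 298 CPM in LT-HSC and 96.7 to 170.2 in HPC-1 and a log2 difference of 0.82 (adjusted p = 0.012), and its call was lost without LT-HSC replicate 4 (adjusted p = 0.050).

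The IL-27 receptor signals through gp130, encoded by Il6st, and through JAK and STAT proteins. In this list of 21 genes, 16 passed the filter, 2 were called higher in LT-HSC (Il27ra and Cish) and 2 higher in HPC-1 (Il6ra and Il6st), and the median was 0.31. With upper quartiles 4 were higher in LT-HSC and with library totals 3. Il6st had 93.2, 101, 101 and 81.5 CPM in LT-HSC and 169, 148, 204 and 164 in HPC-1 and a log2 difference of -0.86 (adjusted p = 0.0022). Il6ra, the alpha chain of the IL-6 receptor, had 13.8, 17.7, 20.8 and 19.4 CPM in LT-HSC and 58.4, 79.4, 88.9 and 62.7 in HPC-1 and a log2 difference of -1.99 (adjusted p = 3.9e-05). The chain that is specific for IL-27 was thus higher in LT-HSC, while gp130 and the chain specific for IL-6 were higher in HPC-1, each without overlap of the groups, though Il27ra and Il6st were not called in the 5 libraries under 4 M counts (adjusted p = 0.12 and 0.089). Cish, a feedback inhibitor induced by STAT5, had 30.1 to 35.7 CPM in LT-HSC and 3.02 to 4.89 in HPC-1, and its 4 LT-HSC values lay close together (3.08, adjusted p = 1.2e-05). The genes of the cytokine itself, Il27 and Ebi3, were not tested.

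Angiotensin II acts through AT1 and AT2 receptors. Of 14 genes of the renin-angiotensin system, 4 passed the filter, and Agtr1b, Agtr2, Agt, Ren1, Mas1 and Mme had no count in any of the 8 libraries. Agtr1a, which encodes the main AT1 receptor, had counts in LT-HSC replicates 2 to 4 alone and was not tested. Anpep, the gene of aminopeptidase N that cleaves angiotensin III, was the gene called in this list. It was higher in all LT-HSC libraries (2.34, adjusted p = 0.0070).

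Adhesion and homing receptors tie stem cells to the marrow and guide leukocytes. Of 24 listed, 22 passed the filter, 9 were called higher in LT-HSC and 7 higher in HPC-1, with a median of 0.69. Ccr2, the receptor by which monocytes leave the marrow, had 0 to 2.24 CPM in LT-HSC and 53.8 to 113 in HPC-1. The LT-HSC values were near the floor and the HPC-1 values were all above 50 CPM, with a log2 difference of -5.95 (adjusted p = 1.9e-06).

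Of 16 cyclins and cyclin-dependent kinases, all tested, 1 was called higher in LT-HSC and 4 higher in HPC-1, with a median of -0.70. Ccnd3, a D-type cyclin gene, was the one higher in LT-HSC (1.13, adjusted p = 0.0065). Cdk6, a kinase whose absence marks deep quiescence, had 439, 258, 280.5 and 279 CPM in LT-HSC and 527, 485, 628 and 646 in HPC-1. LT-HSC replicate 1 was the highest stem cell library for Cdk6 and stayed under all HPC-1 libraries (-0.87, adjusted p = 0.0072). Cdk1, the mitotic kinase, had 20.9 to 35.9 CPM in LT-HSC and 42.7 to 92.3 in HPC-1 and a log2 difference of -1.21 (adjusted p = 0.0062). Ccnb1, which encodes cyclin B1, its partner, also was higher in HPC-1 (-1.14, adjusted p = 0.0037). Cdk4 was the last of the 4 (-0.74, adjusted p = 0.027), and its call was lost without any 1 of LT-HSC replicates 1, 2 and 4 and HPC-1 replicates 2 and 4 (adjusted p between 0.057 and 0.093) and in settings given at the end.

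Inhibitors of these kinases were few: 7 were listed, 5 passed the filter, 1 was called in each direction and the median was 0.08. Cdkn1c, which encodes p57, the inhibitor that holds stem cells in quiescence, had 18.5, 21.5, 11.2 and 8.31 CPM in LT-HSC and 2.67, 0, 0 and 2.68 in HPC-1. HPC-1 replicates 2 and 3 held no count, and the comparison gave a log2 difference of 3.27 (adjusted p = 0.0087). Cdkn1a, which encodes the p53 target p21, was low in both groups and higher in HPC-1 (-2.17, adjusted p = 0.019), and its call was lost without any 1 of LT-HSC replicates 2, 3 and 4 and HPC-1 replicates 2 and 4 (adjusted p between 0.056 and 0.085). Among 15 E2F, pocket protein and related transcription factors, all tested, 1 was called in each direction, with a median of -0.24. Tfdp2, a dimer partner of E2F proteins, was higher in LT-HSC (0.58, adjusted p = 0.014) and lost its call without LT-HSC replicate 2 (adjusted p = 0.071) and without a filter. E2f1, the activator of S phase genes, was higher in HPC-1 (-0.74, adjusted p = 0.037), and this call was lost without any 1 of LT-HSC replicates 1, 2, 3 and 4 and HPC-1 replicates 1, 2 and 4 (adjusted p between 0.051 and 0.095) and in settings given at the end.

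All 33 genes of replication licensing and DNA synthesis passed the filter, 16 were called higher in HPC-1 and 0 in LT-HSC, and the median was -0.67. Cdc6, a loading factor of the replicative helicase, had 19.97 to 33.9 CPM in LT-HSC and 46.2 to 84.7 in HPC-1. Mcm10, which helps to fire origins, had 28.03 to 59.9 CPM in LT-HSC and 66.9 to 147 in HPC-1. HPC-1 replicate 3 was the lowest progenitor library for both, and the groups did not overlap. The log2 differences were -1.32 for Cdc6 (adjusted p = 0.0018) and -1.36 for Mcm10 (adjusted p = 0.0033).

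All 27 mitotic genes passed the filter as well, with 19 called higher in HPC-1, 0 in LT-HSC and a median of -0.88. Ect2, the exchange factor that starts cytokinesis, had 5.73 to 14.6 CPM in LT-HSC and 58.8 to 78.9 in HPC-1 and a log2 difference of -2.60 (adjusted p = 3.8e-05). Mki67, the gene of the proliferation antigen Ki-67, had 1806, 1094, 1127 and 1289 CPM in LT-HSC and 3141, 2097, 2689.9 and 1384 in HPC-1. LT-HSC replicate 1 exceeded HPC-1 replicate 4, so the groups overlapped (-0.81, adjusted p = 0.037), and the call was lost without any 1 of LT-HSC replicates 2, 3 and 4 and HPC-1 replicates 1, 2 and 3 (adjusted p between 0.060 and 0.12) and in settings given at the end.

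Replication-dependent histone genes encode the histones made in S phase. Of 59 genes, 53 passed the filter, 20 were called higher in HPC-1 and 0 in LT-HSC, and the median was -0.88. Many of these genes are near-identical copies, so counts of single members are uncertain and none is given. Histone genes held 0.816%, 0.507%, 0.826% and 0.510% of the counts in LT-HSC and 1.28%, 1.37%, 0.855% and 1.06% in HPC-1. The lowest HPC-1 library was just above the highest LT-HSC library (exact two-sided permutation test, p = 0.0286, the smallest that 4 against 4 samples can give, and 0.0667 adjusted over 7 composition measures).

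The growth machinery of the cell was measured through genes of ribosomes, their assembly, respiration and protein folding. Of 83 ribosomal protein genes, 80 passed the filter, 6 were called higher in HPC-1 and 0 in LT-HSC, with a median of -0.35. Among 20 nucleolar and ribosome biogenesis genes, all tested, 6 were called higher in HPC-1, 0 in LT-HSC and the median was -0.47. Npm1, the gene of the nucleolar chaperone nucleophosmin, had 809.6, 825, 813 and 808 CPM in LT-HSC and 2375, 1524, 1273 and 1267 in HPC-1. The 4 LT-HSC values were nearly equal and HPC-1 replicate 1 was far above the other progenitor libraries, with a log2 difference of -0.98 (adjusted p = 0.0043).

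All 76 nuclear genes of oxidative phosphorylation passed the filter, with 21 called higher in HPC-1, 0 in LT-HSC and a median of -0.54. Uqcrq, a subunit of complex III, had 23.4 to 34.6 CPM in LT-HSC and 50.1 to 61.9 in HPC-1. HPC-1 replicate 3 was the lowest progenitor library for Uqcrq and lay above every LT-HSC library (-0.996, adjusted p = 0.0037).

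Of 22 genes of glycolysis and glucose entry, all tested, 3 were called higher in LT-HSC, near the share of all genes, and 7 higher in HPC-1, with a median of -0.17. Slc2a3, the gene of the glucose transporter GLUT3, had 138 to 166 CPM in LT-HSC and 21.5 to 44.1 in HPC-1 and a log2 difference of 2.22 (adjusted p = 9.2e-06). Hk3, a hexokinase gene of myeloid cells, had 7.42 to 30.7 CPM in LT-HSC and 165 to 197 in HPC-1 and a log2 difference of -3.34 (adjusted p = 5.5e-05). Every LT-HSC library was at least 3 times the highest HPC-1 library for Slc2a3, while Hk3 showed the reverse direction with at least a 5-fold gap. The other genes with more in LT-HSC were Ldhb, a lactate dehydrogenase subunit gene (1.49, adjusted p = 0.0052), and Aldoc, an aldolase gene (1.97, adjusted p = 0.014).

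Chaperones of the endoplasmic reticulum fold secreted proteins. All 15 listed genes were tested, 7 were called higher in HPC-1 and 0 in LT-HSC, and the median was -0.64. Calr, the gene of the lectin chaperone calreticulin, had 1289, 884, 728 and 744 CPM in LT-HSC and 5645, 2854, 1484 and 2056 in HPC-1. HPC-1 replicate 1 was about 4 times HPC-1 replicate 3, and the lowest HPC-1 library was above the highest LT-HSC library (-1.72, adjusted p = 0.0067). Of 27 genes of cholesterol synthesis and transport, 25 passed the filter, 3 were called higher in HPC-1 and 0 in LT-HSC, and the median was 0.21. These were Ebp, a sterol isomerase gene (-1.25, adjusted p = 0.0084), Scarb1, the receptor of high-density lipoprotein (-0.85, adjusted p = 0.0045), and Fdps, which encodes farnesyl diphosphate synthase (-1.01, adjusted p = 0.028). The call of Fdps was lost without any 1 of LT-HSC replicates 2, 3 and 4 and HPC-1 replicates 1, 2 and 4 (adjusted p between 0.056 and 0.086).

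Interferon-stimulated genes are known to be held at a basal level in stem cells. All 29 listed type I genes were tested, 6 were called higher in LT-HSC and 1 higher in HPC-1, and the median was 0.53. Ifi44, an interferon-induced cytoplasmic protein gene, had 53.02 to 72.1 CPM in LT-HSC and 12.5 to 34.99 in HPC-1 and a log2 difference of 1.44 (adjusted p = 0.0033). The groups did not overlap. Ifi27l2a was the gene with the opposite direction, under 10 CPM in every library (-3.66, adjusted p = 0.0052).

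Interferon-induced GTPases act against pathogens inside cells. Of 14 listed, 12 matched a gene, 11 passed the filter, 6 were called higher in LT-HSC and 1 higher in HPC-1, with a median of 0.84. Gbp9 had 14.7 to 29.1 CPM in LT-HSC and 0 to 1.35 in HPC-1, and Gbp8 had 15.2 to 24.8 CPM in LT-HSC and 0 to 2.24 in HPC-1. HPC-1 replicates 1 and 3 held no count of either gene, and the log2 differences were 5.10 (adjusted p = 0.00010) and 5.34 (adjusted p = 0.00077). Gbp3 was higher in HPC-1, with a log2 difference of -1.48 (adjusted p = 0.00068). These genes have near-identical neighbours, so the share of each in the counts is uncertain.

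Of 11 genes of MHC class I presentation, all tested, 1 was called higher in HPC-1 and 0 in LT-HSC, with a median of -0.18. It was Psmb8, a subunit of the immunoproteasome, with a log2 difference of -0.93 (adjusted p = 0.0042). For MHC class II, 10 genes were listed, 7 passed the filter, 2 were called higher in LT-HSC and 1 higher in HPC-1, and the median was -0.17. Cd74, the invariant chain, had 21.9 to 39.9 CPM in LT-HSC and 0 to 5.83 in HPC-1 and a log2 difference of 3.71 (adjusted p = 0.0012). H2-Aa, an alpha chain gene, had a log2 difference of 3.16 (adjusted p = 0.0052). Both were higher in every LT-HSC library, while H2-Ob, which encodes a chain of an inhibitor of peptide loading, had 9.51, 11.1, 9.55 and 17.8 CPM in LT-HSC and 16.1, 40.8, 49.6 and 29.8 in HPC-1. LT-HSC replicate 4 exceeded HPC-1 replicate 1 for H2-Ob, which was called higher in HPC-1 (-1.48, adjusted p = 0.011).

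Among 21 inflammatory receptor and NF-kB genes, 15 passed the filter, 3 were called higher in LT-HSC and 1 higher in HPC-1, with a median of 0.25. Nfkbia, the inhibitor IkB-alpha, was higher in LT-HSC (1.18, adjusted p = 0.019) and lost its call without LT-HSC replicate 3 (adjusted p = 0.080). Tnfaip3, the ubiquitin-editing inhibitor A20, was higher there as well (1.04, adjusted p = 0.020) and lost its call without LT-HSC replicate 4 (adjusted p = 0.062) and without HPC-1 replicate 2 (adjusted p = 0.062). Relb, a subunit of the alternative NF-kB pathway, was called higher in LT-HSC (2.09, adjusted p = 0.032), a call that was lost without any 1 of LT-HSC replicates 2, 3 and 4 and HPC-1 replicates 1 and 2 (adjusted p between 0.066 and 0.15). Il1r1, the interleukin-1 receptor, was higher in HPC-1 (-1.45, adjusted p = 0.013) and lost its call without LT-HSC replicate 4 (adjusted p = 0.050) and without HPC-1 replicate 2 (adjusted p = 0.054).

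Immediate early genes are induced by growth signals within minutes. Of 21 listed, 17 passed the filter, 7 were called higher in LT-HSC and 0 in HPC-1, with a median of 1.37. Egr1, a zinc finger gene that restrains stem cell division, had 138, 399, 216 and 169.9 CPM in LT-HSC and 5.35, 7.18, 15.5 and 23.3 in HPC-1 and a log2 difference of 4.08 (adjusted p = 0.00031). Fosb, a subunit of AP-1, had 72.3 to 158 CPM in LT-HSC and 4.01 to 26.3 in HPC-1 and a log2 difference of 2.67 (adjusted p = 0.0025), a call lost with all 36 libraries (adjusted p = 0.052). LT-HSC replicates 2 and 3 were the highest for both, and every LT-HSC library exceeded every HPC-1 library.

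Of 12 genes of the Myc and Max network, 11 passed the filter, 1 was called in each direction and the median was 0.08. Mycn, the Myc family gene of stem cells, had 148, 211, 344 and 339 CPM in LT-HSC and 9.36, 32.7, 23.7 and 24.6 in HPC-1 and a log2 difference of 3.52 (adjusted p = 4.1e-05). Myc had 267, 197, 215 and 309 CPM in LT-HSC and 300.5, 456, 440.1 and 528 in HPC-1 and was called higher in HPC-1 (-0.80, adjusted p = 0.014), a call that was lost without LT-HSC replicate 2 (adjusted p = 0.059). LT-HSC replicate 4 and HPC-1 replicate 1 overlapped for Myc, while LT-HSC replicates 3 and 4 were the highest of all for Mycn.

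Of 23 TGF-beta and BMP genes, 16 passed the filter, 8 were called higher in LT-HSC and 0 in HPC-1, and the median was 0.62. Ltbp1, which stores latent TGF-beta in the matrix, had 7.61, 8.06, 14.4 and 11.5 CPM in LT-HSC and 0, 0, 0 and 0.473 in HPC-1. With 192 counts in LT-HSC and 3 in HPC-1, all 3 in replicate 4, the pooled ratio was 49.4 with an exact 95% counting interval from 16.7 to 242 (adjusted p = 0.00032). For 20 genes of Trp53 and its targets, 14 passed the filter, and Ndn was called higher in LT-HSC and Cdkn1a, given above, higher in HPC-1, with a median of 0.21.

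Imprinted genes are expressed from 1 parental copy and many restrain growth in stem cells. Of 20 listed, 19 matched a gene, 10 passed the filter, 9 were called higher in LT-HSC and 0 in HPC-1, and the median was 3.51. Gnas was the tested gene without a call. Meg3, a maternally expressed noncoding RNA, had 172, 128, 77.2 and 56.3 CPM in LT-HSC and 0.446, 3.14, 0 and 2.52 in HPC-1. LT-HSC replicate 1 was the highest and replicate 4 the lowest of the stem cell libraries, and HPC-1 replicate 3 held no count, with a log2 difference of 5.93 (adjusted p = 3.1e-05). Ndn, the gene of the growth suppressor necdin, had 11.9 to 21.5 CPM in LT-HSC and 0 to 3.14 in HPC-1 and a log2 difference of 4.19 (adjusted p = 0.0016). All LT-HSC libraries were above all HPC-1 libraries for both.

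In the insulin-like growth factor list of 13 genes, 6 passed the filter, 3 were called higher in LT-HSC (Igf2r, Igf1r and Igf2bp2) and 1 higher in HPC-1, with a median of 0.94. Igf2bp2, an RNA-binding protein gene, had a log2 difference of 2.75 (adjusted p = 0.0076). Igfbp4, which encodes a secreted protein that binds the growth factors, had 91.4 to 124 CPM in LT-HSC and 392 to 567 in HPC-1. Every HPC-1 library was more than 3 times the highest LT-HSC library (-2.23, adjusted p = 2.2e-06).

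Efflux pumps give stem cells their dye exclusion, and they were listed with detoxifying enzymes. Of 23 listed, 17 passed the filter, 5 were called higher in LT-HSC and 1 higher in HPC-1, with a median of 0.25. Abcg2, the pump behind the side population, had 53.02 to 74.6 CPM in LT-HSC and 22.5 to 30.9 in HPC-1 and a log2 difference of 1.37 (adjusted p = 0.00039). Abcb1a, a P-glycoprotein gene, had 11.4 to 41.5 CPM in LT-HSC and 0 to 1.10 in HPC-1 and a log2 difference of 5.12 (adjusted p = 9.6e-05). Sult1a1, a sulfotransferase gene, had a log2 difference of 3.80 (adjusted p = 2.2e-05). Txnip, an inhibitor of thioredoxin, had a log2 difference of 1.84 (adjusted p = 0.00052). LT-HSC replicate 1 was the lowest stem cell library for Abcb1a, Sult1a1, Txnip and Aldh1a1, the fifth gene. Gpx1, a glutathione peroxidase gene, was higher in HPC-1, with a log2 difference of -1.18 (adjusted p = 0.00064).

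All 16 chromatin regulators known from clonal hematopoiesis were tested, 0 were called higher in LT-HSC and 1 higher in HPC-1 by edgeR, and the median was -0.23. It was Ezh2, the methyltransferase of histone H3 lysine 27 (-0.72, adjusted p = 0.019), and the call was lost without LT-HSC replicate 2 (adjusted p = 0.068) and without LT-HSC replicate 3 (adjusted p = 0.053). Of 11 abundant noncoding RNAs, 9 matched a gene, 8 passed the filter, 3 were called higher in LT-HSC (Malat1, Neat1 and Meg3) and 0 in HPC-1, with a median of 0.12. Malat1, a nuclear RNA of splicing speckles, had 15917 to 22899.7 CPM in LT-HSC and 7836 to 13194 in HPC-1 and a log2 difference of 0.93 (adjusted p = 0.0073). Neat1, the scaffold of paraspeckles, had a log2 difference of 1.42 (adjusted p = 0.00064). The lowest LT-HSC library was above the highest HPC-1 library for both.

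**Figure D4:**
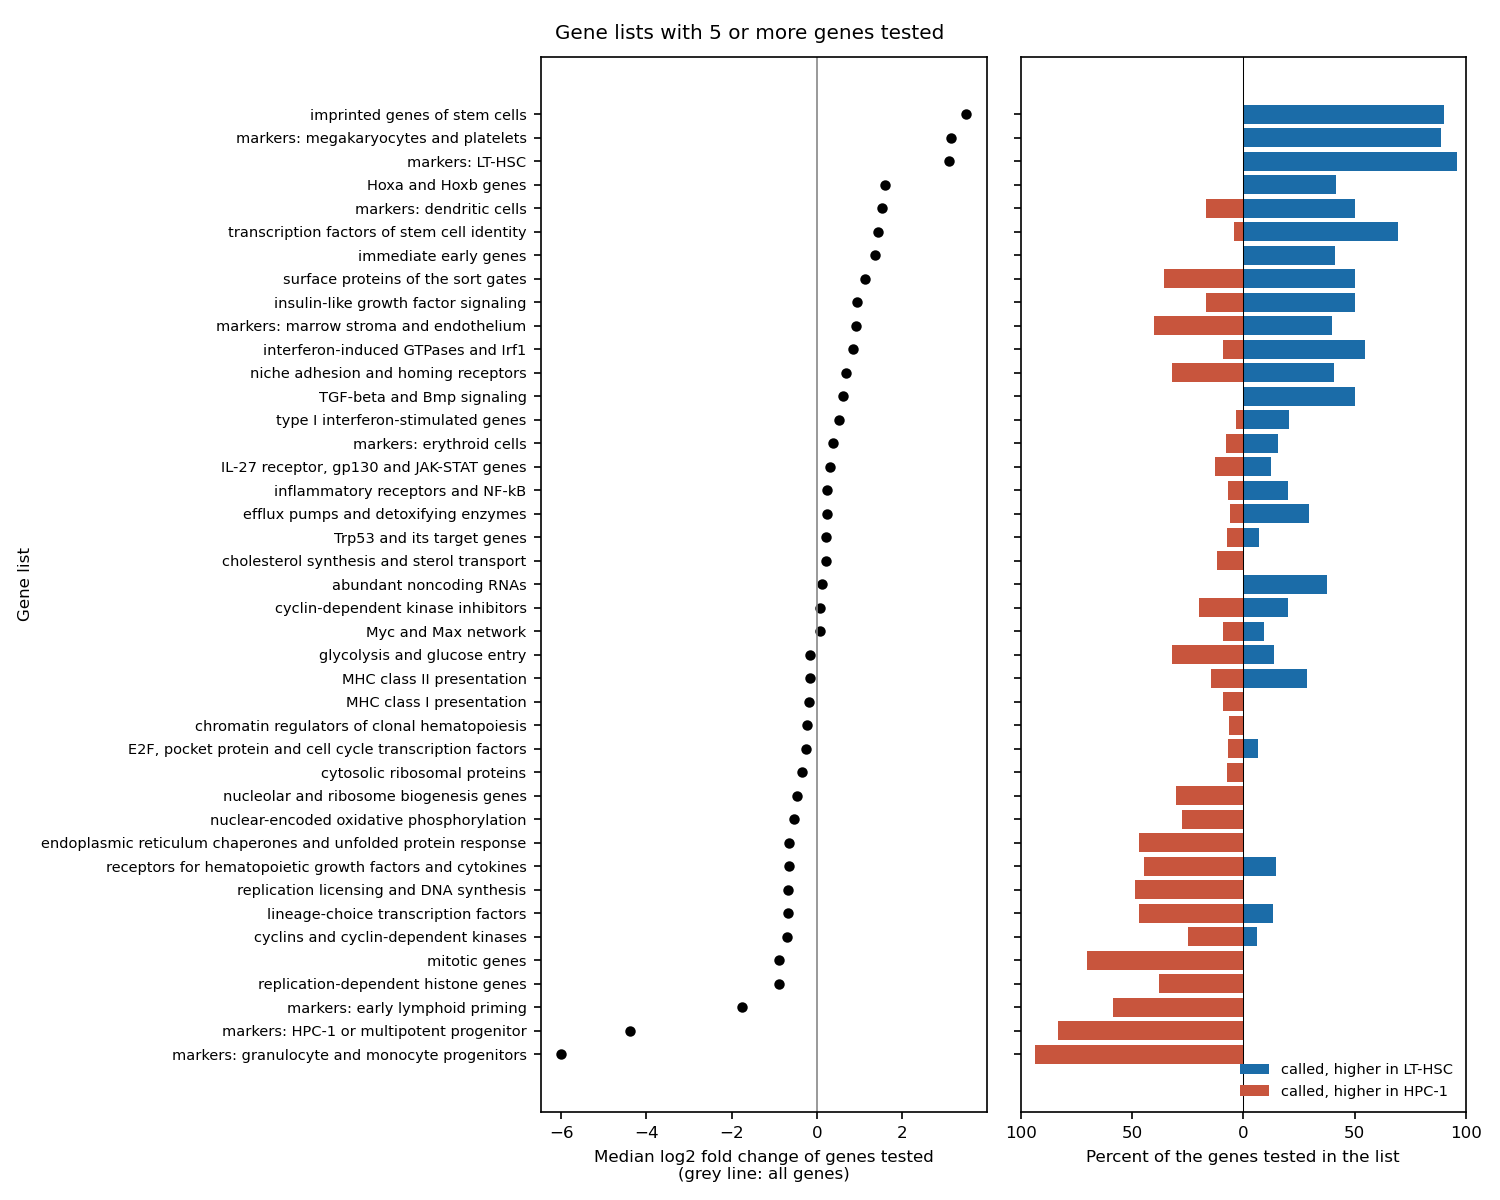
Median log2 difference of LT-HSC over HPC-1 (left, points, grey line for all genes tested) and percent of tested members called higher in LT-HSC (right, blue) or HPC-1 (right, red) for the gene lists with 5 or more members tested.

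Marker lists of other cells were measured in each library, and their part in the results was not tested. Of 14 genes of maturing neutrophils, 1 passed the filter, S100a9, the most abundant of the list, which was not called by edgeR (adjusted p = 0.97), and Ly6g had no count. Their summed level was 22.3, 44.5, 1.70 and 5.14 CPM in LT-HSC and 41.02, 4.49, 40.99 and 2.36 in HPC-1. Of 12 B cell genes, 11 matched and 2 were tested without a call, Igkc was the most abundant, Vpreb3 had no count, and the sums were 30.9, 8.45, 14.6 and 18.99 CPM in LT-HSC and 8.47, 41.3, 15.96 and 23.01 in HPC-1. For 12 T and NK cell genes, 3 were tested, Cd3e, Cd3g, Trac, Ncr1 and Gzma had no count, and the sums were 12.4, 22.7, 29.7 and 18.9 CPM in LT-HSC and 30.8, 46.2, 28.5 and 35.6 in HPC-1. Nkg7, a membrane protein gene of cytotoxic granules, was the most abundant and was higher in HPC-1, with a log2 difference of -1.90 (adjusted p = 0.0017).

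For 14 genes of eosinophils, mast cells and basophils, 1 was tested, Cma1 had no count, and the sums were 1.43, 3.46, 4.24 and 38.8 CPM in LT-HSC and 40.1, 36.3, 68.2 and 54.4 in HPC-1. Cpa3, the carboxypeptidase gene of mast cells and of some progenitors, was that gene, with a log2 difference of -5.09 (adjusted p = 9.9e-06). Of 9 dendritic cell genes, 6 were tested, 3 were called higher in LT-HSC (Cd74, H2-Aa and Clec9a) and 1 higher in HPC-1 (Irf8), Tcf4 was the most abundant, and the sums were 219, 227, 199.8 and 226 CPM in LT-HSC and 376, 406, 374 and 393 in HPC-1. Clec9a, a lectin receptor gene of dendritic cells, had a log2 difference of 3.10 (adjusted p = 0.0010). Of 12 macrophage genes, 2 were tested and the sums were 19.97, 46.1, 35.9 and 55.5 CPM in LT-HSC and 32.1, 39.5, 35.8 and 29.8 in HPC-1. Cd68, a lysosomal protein gene and the most abundant, was higher in HPC-1 (-2.13, adjusted p = 0.0040). Axl, a receptor kinase gene, was called higher in LT-HSC (1.93, adjusted p = 0.040), and its call was lost without any 1 of LT-HSC replicates 2 and 4 and HPC-1 replicates 1, 2 and 4 (adjusted p between 0.055 and 0.16) and in settings given at the end.

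Erythroid genes numbered 16, of which 13 were tested, with 2 called higher in LT-HSC, 1 higher in HPC-1 and sums of 453, 942, 741 and 712 CPM in LT-HSC and 255, 581, 485 and 373 in HPC-1. Car2, a carbonic anhydrase gene and the most abundant of the list, had a log2 difference of 1.82 (adjusted p = 0.00042). Aqp1, a water channel gene, was also higher in LT-HSC (2.63, adjusted p = 0.022) and lost its call without LT-HSC replicate 4 (adjusted p = 0.053) and without HPC-1 replicate 2 (adjusted p = 0.059) and without a filter. Tfrc, the transferrin receptor, was higher in HPC-1 at 47.6 to 64.2 CPM in LT-HSC and 106 to 164 in HPC-1, with a log2 difference of -1.19 (adjusted p = 0.00055).

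Of 23 intestinal epithelium genes, 4 were tested, Krt20, Fabp1, Tff3, Phgr1 and Guca2a had no count, and the sums were 123, 118, 107 and 111 CPM in LT-HSC and 86.05, 52.03, 100.1 and 52.3 in HPC-1. Krt18, a keratin gene and the most abundant, was called higher in LT-HSC, with a log2 difference of 1.15 (adjusted p = 0.0015). For 8 hepatocyte genes, Alb, Ttr, Serpina1a and Fgb had no count, 1 was tested, and the sums were 9.98, 13.4, 8.91 and 8.44 CPM in LT-HSC and 71.3, 92.4, 56.1 and 106 in HPC-1. It was Trf, the transferrin gene, with a log2 difference of -3.07 (adjusted p = 4.9e-06). Of 12 stroma and endothelium genes, 5 were tested, Kitl had no count, and the sums were 175, 136, 190.1 and 154 CPM in LT-HSC and 227, 323, 318 and 276 in HPC-1. Kdr, the VEGF receptor 2 (3.66, adjusted p = 0.0055), and Col1a2, a collagen chain (4.29, adjusted p = 0.0028), were higher in LT-HSC. Pecam1, an adhesion protein of endothelium and leukocytes and the most abundant, was higher in HPC-1 (-1.09, adjusted p = 0.00059). Pdgfrb, the receptor of platelet-derived growth factor, was also higher in HPC-1, with a log2 difference of -2.91 (adjusted p = 0.00027).

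The make-up of the libraries was compared with exact two-sided permutation tests over the 8 samples, for 7 measures adjusted together. Malat1 alone took 2.14%, 2.32%, 1.85% and 1.76% of the counts in LT-HSC and 1.13%, 0.744%, 1.17% and 0.873% in HPC-1 (exact p = 0.0286, adjusted 0.0667). After all libraries were thinned to the lowest total, 2183648 counts, 12876 to 13456 genes had more than 3 counts in LT-HSC and 11792 to 12499 in HPC-1 (n = 4 each, exact p = 0.0286, adjusted 0.0667). Both measures separated the groups completely and neither passed the adjustment. Ribosomal protein genes took 5.12 ± 0.614% of the counts in LT-HSC and 6.22 ± 0.649% in HPC-1 (exact p = 0.0857, adjusted 0.15). The 10 most abundant genes took 10.9% and 10.5% (exact p = 0.771), protein-coding genes 86.2% and 87.1% (exact p = 0.657) and long noncoding genes 7.01% and 5.23% (exact p = 0.429) in LT-HSC and HPC-1. The long noncoding share was 4.77% to 10.4% in the 5 shallower libraries and 2.73% to 3.87% in the 3 deeper ones. These 3 also held Xist and no Ddx3y, so depth and sex-linked expression cannot be told apart here. The difference between LT-HSC and HPC-1 in this share was 1.78 points. It was 0.642 without LT-HSC replicate 2 and 2.91 without LT-HSC replicate 4, the lowest and highest with a library left out.

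The same cell type comparison was made in 3 other pairs of groups, which hold no library of the 8, to see whether the difference itself changed with the infusion or with Il27ra. In PBS-infused heterozygous mice (6 libraries), 2144 of 12173 genes were called (17.6%). In both comparisons 1379 genes were called, 63.2% of the Ang II list and 64.3% of the PBS list. LT-HSC replicate 2 of this PBS pair had 19725 genes with more than 3 counts at a total of 2560838 counts. LT-HSC replicates 1 and 3 of the pair had 12846 and 15809 such genes at 2191163 and 5271346 counts. The part of that replicate 2 in the PBS results and in the interaction with PBS was not tested. With Ang II in Il27ra-deficient mice (8 libraries), 2195 of 12079 genes were called (18.2%), with 1338 shared (61.3% and 61.0% of the lists). With Ang II and intact Il27ra (2 LT-HSC and 3 HPC-1 libraries), 611 of 11667 were called (5.24%), with 498 shared (22.8% and 81.5%). Every shared gene had the same direction in both lists. In this last pair 16 of the 23 intestinal epithelium genes were tested and 3 called higher in LT-HSC, and their summed level over a scale of all 36 libraries was 786 and 819.8 CPM in LT-HSC and 174, 158 and 454 in HPC-1, against 51.8 to 121 in the 8 libraries. Dmbt1 was the most abundant, Fabp1 had no count, and their part in the results of this pair was not tested.

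For Slamf1 the log2 difference was 3.76 (SE 0.39, adjusted p = 3.0e-05) with PBS, 5.45 (SE 0.60, adjusted p = 0.00032) in deficient mice and 3.08 (SE 0.84, adjusted p = 0.074) with intact Il27ra. For Mmrn1 it was 4.45 (SE 0.33, adjusted p = 3.1e-05), 4.69 (SE 0.34, adjusted p = 4.4e-05) and 5.48 (SE 0.27, adjusted p = 6.2e-05) in the same order. Il27ra itself differed by 1.39 (SE 0.32, adjusted p = 0.0094) with PBS, by 1.30 (SE 0.32, adjusted p = 0.016) in deficient mice and by 2.52 (SE 0.45, adjusted p = 0.015) where both copies were intact. On a scale over all 36 libraries, deficient LT-HSC after Ang II still held Il27ra at 11.97 to 19.2 CPM and heterozygous LT-HSC after Ang II at 25.9 to 32.9. Its level is thus not a measure of intact copies alone. Mpo differed by -9.84 (SE 0.68, adjusted p = 0.00040) with PBS, by -3.99 (SE 2.02, adjusted p = 0.23) in deficient mice and by -10.69 (SE 0.35, adjusted p = 3.5e-06) with intact Il27ra. In deficient mice after Ang II, LT-HSC replicate 2 held Mpo at 1139.9 CPM on that scale, where the other 3 LT-HSC libraries of this group held 1.04 to 20.04 CPM. The same library held Cd48 at 8.42 CPM, against 0.42 to 1.13 in the other 3, and had the lowest Slamf1 of its group (21.28 CPM).

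The difference between the contrasts was then tested directly as an interaction in edgeR. Between Ang II and PBS in heterozygous mice, 0 of 12929 genes were called (0%) and 306 had an unadjusted p under 0.05 (2.37%). DESeq2 called 1 gene, C3, which encodes complement component 3 (interaction of -4.32 on the log2 scale, adjusted p = 0.0354). Between heterozygous and deficient mice after Ang II, 0 of 12707 were called by edgeR (0%) and 0 by DESeq2, and 333 had an unadjusted p under 0.05 (2.62%). Between heterozygous mice and mice with intact Il27ra after Ang II, 0 of 13075 were called by edgeR (0%), 935 had an unadjusted p under 0.05 (7.15%), and DESeq2 called 14. For Mpo the interaction, heterozygous minus deficient in the LT-HSC minus HPC-1 difference, was -7.13 on the log2 scale (edgeR, adjusted p = 1). For Il27ra the interaction, Ang II minus PBS in the LT-HSC minus HPC-1 difference, was -0.07 on the log2 scale (edgeR, adjusted p = 1). In these edgeR fits of 4 groups each no difference passed the adjustment, while 21 genes did for intact Il27ra in the fit of all 36 libraries and 1 without HPC-1 replicate 4. The counts of 0 do not show that the contrasts are equal.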

How the data were processed

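RNA of 5000 sorted cells per sample was sequenced by the authors, aligned to mm10 and given to genes with RSEM; the deposited table holds expected counts per Ensembl gene in whole numbers, without normalization, which was checked. The 8 libraries were taken from the deposited column names, and totals ran from 2183648 to 6861078 counts. In R 4.3.3, edgeR 4.0.16 was used with filterByExpr, TMM factors and the robust quasi-likelihood test, adjusted by Benjamini-Hochberg at 5% over all genes tested. Tests were tried on simulated data. CPM are TMM-normalized, log2 CPM used a prior count of 2, and a floor of 3 counts per group was used for folds. Each SE is the absolute log2 difference divided by the square root of the F statistic of the quasi-likelihood test. Interactions were fitted over 4 groups each. Alternatives were DESeq2 1.42.0, limma-voom (limma 3.58.1) with sample weights, the test without its robust option, 3 other scalings, no filter, a mean of at least 10 counts, all 36 libraries, replicate number as a block, a Y-linked covariate, thinned counts, libraries under 4 M counts, and each library left out. Genes named were those of the gates, 12 leading genes in each direction, up to 3 per direction in each list with the smallest adjusted p, the most abundant member of each list and the members of counts of 5 or fewer. Members and lists were chosen with earlier results of these data known. Genes from mitochondrial DNA could not be described, since the table gave none in the list. Gene positions are those of mm10.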

Additional observations from a re-analysis of the deposited data

Results flagged for a closer look

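In groups of 4 libraries, a library was picked out when its gap to the nearest other library, divided by the range of its group, was above the 95% critical value of Dixon's test. Of 406 groups examined, 21 met this rule, where chance flags about 1 in 20 groups, and each of the 8 libraries was picked out at least 1 time. Values are these gap-to-range ratios, of log2 CPM for genes, of log2 of 1 plus the summed CPM for lists and of percent of counts for the ribosomal share.

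For key genes, Slamf1 was lowest in HPC-1 replicate 2 (0.973), Procr highest in LT-HSC replicate 2 (0.924), Arhgef12 lowest in LT-HSC replicate 4 (0.841) and Aldh1a1 lowest in HPC-1 replicate 1 (0.847). Ccl9 was highest in HPC-1 replicate 3 (0.859), Cdk6 highest in LT-HSC replicate 1 (0.841) and Uqcrq lowest in HPC-1 replicate 3 (0.893). Sult1a1 was lowest in LT-HSC replicate 1 (0.850), Abcg2 highest in HPC-1 replicate 2 (0.838), Car2 lowest in HPC-1 replicate 1 (0.851) and Relb highest in HPC-1 replicate 4 (0.978). A ratio of 1 was seen where a single library of the group held counts: Ctsg in LT-HSC replicate 2, Gbp8 in HPC-1 replicate 2, and Ltbp1 and Col1a2 in HPC-1 replicate 4.

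Among summed levels and shares, the share of ribosomal protein genes was highest in LT-HSC replicate 3 (0.831). The summed CPM of cyclins and their kinases was lowest in LT-HSC replicate 2 (0.908), of MHC class I genes lowest in HPC-1 replicate 1 (0.858), of the Myc and Max network highest in LT-HSC replicate 4 (0.927) and of efflux and detoxifying genes lowest in LT-HSC replicate 1 (0.879). Sex-linked genes were highest in HPC-1 replicate 4 (0.880), the deep library with Xist and without Ddx3y.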

How the results depend on the processing

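In all settings run, 0 of the genes called in both that setting and the edgeR test had opposite directions. The count of called genes, 2182, stayed within 1.5 times with DESeq2 (2777), without the robust option (2137), with upper-quartile (2147), RLE (2194) or total-count scaling (2042), without a filter (2896), with a mean of at least 10 counts (2292), with all 36 libraries (2676), with a Y-linked covariate (2141), with thinned counts (2038) and with replicate number as a block (2313, of which 2028 were shared). It was 3406 with limma-voom, and the cause was not tested. It was 705 with the 5 libraries under 4 M counts, 693 of them shared, where fewer libraries were fitted, and 1471 to 2982 when each library was left out in turn. The count with at least a 2-fold difference, 1439, was 693 with the libraries under 4 M counts and 1171 to 1793 with each library left out.

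The interaction of cell type with infusion had 1 gene with DESeq2 and 0 in the other settings. That with Il27ra deficiency had 0 in each setting. That with intact Il27ra had 14 genes with DESeq2, 21 with all 36 libraries, 0 to 1 with each library left out (1 without HPC-1 replicate 4) and 0 otherwise, and the cause was not tested. The block by replicate number is no known pairing, and deviations of same-numbered libraries correlated across genes at 0.269, 0.059, -0.098 and 0.213. LT-HSC replicate 3 correlated with HPC-1 replicate 4 at 0.394. On the scale of all 36 libraries, LT-HSC replicate 3 had Xist at 3934 CPM and Ddx3y at 0. HPC-1 replicate 3 had 4.73 and 76.5 CPM, so the libraries numbered 3 were no pair from 1 mouse. The difference in the share of the 10 most abundant genes (LT-HSC minus HPC-1, 0.395 percentage points) ranged from -0.825 to 2.03 with each library left out and reversed in 4 cases: -0.825 without LT-HSC replicate 1, -0.578 without LT-HSC replicate 2, -0.176 without HPC-1 replicate 3 and -0.126 without HPC-1 replicate 4. That of protein-coding genes ranged from -2.65 to 0.464 and reversed without LT-HSC replicate 1 (0.464).

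Of 146 genes followed by name, 142 were called, and 90 of these kept their call and direction in each of the 13 other settings in which they were tested and with each of the 8 libraries left out. No gene reversed. A call was lost in at least 1 setting by 52 genes. In the libraries under 4 M counts 50 genes lost theirs (adjusted p between 0.051 and 0.40). For 32 of these it was the only loss (adjusted p between 0.051 and 0.29). A call was gained by 3 genes without one (Cd27, Kit and Robo4). Cd27 did so with DESeq2, no filter, the block and the Y-linked covariate (adjusted p between 0.0019 and 0.044), and Robo4 with limma-voom, without the robust option, with no filter, all 36 libraries and the block (between 0.00039 and 0.046). Calls were lost with the block by Flt3 (adjusted p = 0.075), E2f1 (0.062) and Axl (0.066), with all 36 libraries by Fosb (0.052), Axl (0.054) and Mki67 (0.12), and with the Y-linked covariate by Mki67 (0.067), Axl (0.052) and Ncl (0.080). They were lost without a filter by E2f1 (0.066), Tfdp2 (0.077) and Aqp1 (0.084), with upper-quartile scaling by E2f1 (0.053) and Ncl (0.052), with library totals by E2f1 (0.10), Cdk4 (0.088) and Rpsa (0.054), and without the robust option by Ncl (0.060). The 32 were Aldoc, Anpep, Atp5l, Calr, Cd68, Cdk6, Clec9a, Ebp, Gbp8, H2-Aa, H2-Ob, Hoxb2, Ifi27l2a, Ifit2, Igf2bp2, Ikzf1, Il27ra, Il6st, Kdr, Krt18, Ldhb, Ly6a, Malat1, Mcm10, Myb, Ndn, Npm1, Pdia4, Psmb8, Rpl28, Scarb1 and Sox4. With library totals fewer list members were called higher in HPC-1: 16 mitotic, 15 oxidative phosphorylation, 11 replication, 5 chaperone, 5 glycolysis, 4 ribosome biogenesis and 3 ribosomal protein genes. Hoxb6, Cdkn1a and Relb had too few counts to be tested in thinned counts, and Hoxb6 also in the libraries under 4 M counts, so these gave no value. Depth limits what can be said of genes under a few CPM: 3 counts equal 1.43 CPM in the shallowest library and 0.396 in the deepest. With 4 samples in each group, exact tests cannot go below 0.0286. The labels gave no sex, batch or mouse, although the methods of the study name mouse gender as a factor in its own DESeq2 tests.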
